A study of Mus musculus with 13 samples.

Results

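The first 10 days after birth were followed here as the ventricle at postnatal day (PN) 10 against the ventricle at PN1, with 1 RNA-seq library of each stage, so 2 of the 13 libraries of the series. All animals were wild-type FvB mice, an inbred laboratory strain, and the atria were removed before RNA was taken. Ventricles at embryonic day (E) 17, PN28 and PN90, 1 library each, serve as context, as do 8 libraries of isolated cells: cardiomyocytes (2 neonatal, PN30 and PN67) and cardiac fibroblasts (2 neonatal, PN28 and PN60). Ventricle RNA was depleted of ribosomal RNA before library preparation, whereas cell libraries were made with a TruSeq protocol, so levels are not set against each other across the 2 kinds. The labels do not say how many animals a ventricle library holds. In RNA of a whole tissue, fewer cells of a type and less RNA per cell cannot be told apart.

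In the mouse heart the first postnatal days are when cardiomyocytes, the contracting muscle cells, leave the cell cycle and go on to grow in size. Over the same period the sarcomere, the unit of contraction, exchanges fetal for adult protein forms, and the muscle turns from glucose and lactate towards fatty acids as fuel. The markers of this comparison are Tnni1, the slow skeletal troponin I that the fetal heart uses, Igf2, an imprinted fetal growth factor, and Tnnt2, cardiac troponin T.

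Levels are FPKM, fragments divided by transcript length and by the mapped fragments of the library, summed over the transcripts of a gene and scaled between the 5 ventricle libraries by the median of their ratios. Of 29044 genes with a usable sum, 11454 had a mean FPKM of at least 1 over the 2 libraries and were compared. A gene was called when log2(FPKM + 1) differed by at least 1, a 2-fold difference, and the 95% confidence intervals of FPKM in the 2 libraries did not overlap. These intervals cover counting and assignment error within a library. With 1 library per stage there is no replicate check and no test, and differences between animals are not measured. The deposited tables hold no fragment counts. As a guide to depth, the authors' coverage per unit of FPKM had a median of 21.5 at PN10 and 23.6 at PN1, and the median half-width of the interval was 8.95% of FPKM at PN10 and 8.46% at PN1.

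At PN10, 367 genes were called higher (3.20% of those compared) and 379 lower (3.31%), with 37 of each at least 4-fold apart. Counts of calls in the gene lists below are to be read against these shares. The median log2 ratio over all genes was 0.00. Without scaling, the median was -0.22 and 26.6% of the calls were higher at PN10 (215 higher, 594 lower), whereas scaling to equal sums without mitochondrially encoded genes gave a median of 0.11 and 61.0% (489 higher, 313 lower), against 49.2% here. The directions below are therefore relative to the median gene. No called gene changed sign under either scaling, but this was fixed in advance. A call needs a log2 ratio of at least 1 in size, and the scalings shifted ratios by far less. Transcripts under 200 nt, which the gene sums leave out, gave 5 calls higher (1.98%) and 8 lower (3.16%). The same call between the 2 neonatal cardiomyocyte libraries, which are replicates, gave 36 genes higher in the first (0.311%) and 7 lower (0.0604%), and between the 2 neonatal fibroblast libraries 16 (0.140%) and 36 (0.315%). The neighbouring intervals, which share a library with this one, gave 226 genes higher (1.96%) and 253 lower (2.20%) at PN1 than at E17, and 380 higher (3.33%) and 304 lower (2.67%) at PN28 than at PN10. At PN90 against PN28, 61 genes were higher (0.544%) and 59 lower (0.526%).

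**Figure D1:**
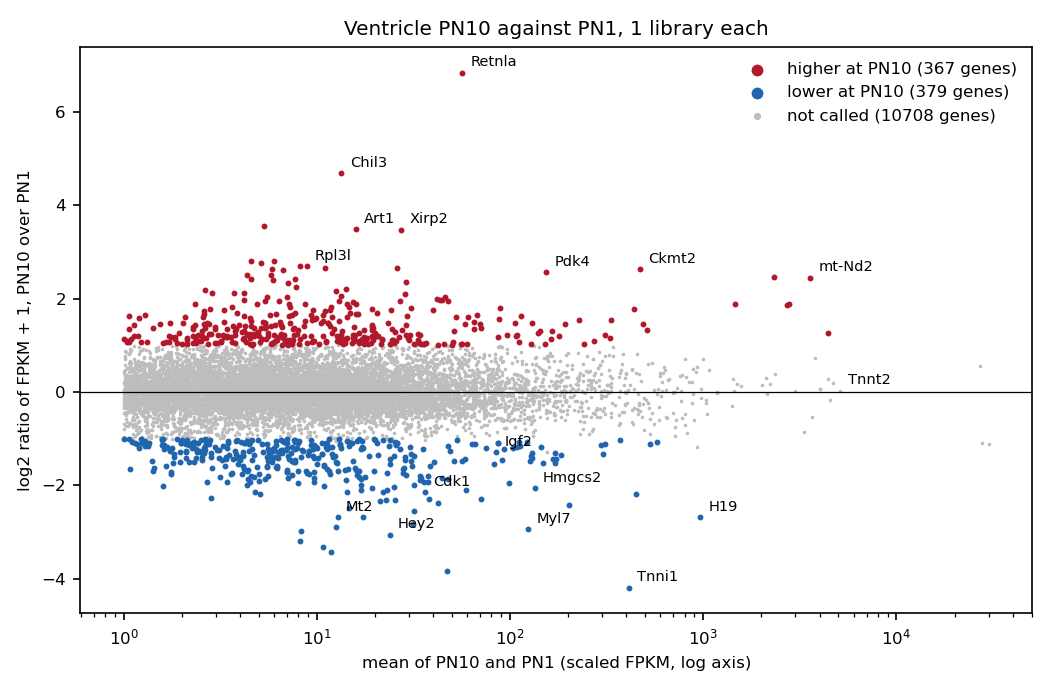
Log2 ratio of FPKM + 1 (PN10 over PN1, vertical axis) against the mean scaled FPKM of the 2 libraries (horizontal log axis) for the 11454 genes compared, 1 point per gene. The 367 genes called higher at PN10 are red and the 379 called lower are blue. Retnla, listed at 0 at PN1, is at the top at 6.83, a height set by the pseudocount, and Tnni1 at the bottom with -4.19, while Tnnt2 lies at 0.03.

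Tnni1 had the lowest ratio of all genes. Its FPKM was 741 at E17, 782 at PN1, 42.0 at PN10, 0.42 at PN28 and 0.28 at PN90, so nearly all of its fall lay after PN1 and it was still above its later level at PN10. The PN10 interval of 38.4 to 45.8 lay far below the PN1 interval of 775 to 808, and the log2 ratio was -4.19. Tnni3, the adult cardiac troponin I, had 4993 FPKM at PN10 against 4378 at PN1 with overlapping intervals (log2 ratio 0.19) and reached 9491 at PN28. Igf2 had 49.0 FPKM at PN10 against 121 at PN1 (log2 ratio -1.28), between 249 at E17 and 8.53 at PN28. Tnnt2 as a gene was nearly level, with 5144 FPKM at PN10 and 5037 at PN1, although its isoforms were not. Myl3, a ventricular myosin light chain, had 4828 FPKM at PN10 and 4001 at PN1 (log2 ratio 0.27, not called). Myl2, the main ventricular regulatory light chain, was listed with a usable value at PN10 only (17414 FPKM) and is not compared.

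Genes of cell division were the most uniform group. Of 33 mitosis, spindle and cytokinesis genes compared, 30 were called lower at PN10 and 0 higher, with a median log2 ratio of -1.39. Of 25 DNA replication and nucleotide synthesis genes, 21 were called lower and 0 higher, with a median of -1.30. Every gene of both lists had a log2 ratio below 0 as scaled here.

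Cdk1, the kinase that drives entry into mitosis, had 103 FPKM at E17, 59.9 at PN1, 12.8 at PN10, 1.81 at PN28 and 1.99 at PN90 (log2 ratio of PN10 over PN1 -2.15). Ccnb1, its cyclin B partner, had 8.14 FPKM at PN10 against 38.2 at PN1 (log2 ratio -2.10). Birc5, a subunit of the chromosomal passenger complex, had 6.27 against 27.7 FPKM (log2 ratio -1.98). Ccnb1 and Birc5 had 1.27 and 0.62 FPKM at PN28, so the PN10 levels of all 3 genes lay between those at PN1 and PN28. Among replication genes the lowest ratios were those of Rrm2, a ribonucleotide reductase subunit (4.66 FPKM at PN10, 24.1 at PN1, log2 ratio -2.15), Prim1, a primase subunit (3.61 against 15.6, -1.85), and Uhrf1, which binds hemimethylated DNA behind the fork (2.79 against 12, -1.78). Mki67, a nuclear protein of cycling cells, had 20.6 FPKM at PN10 and 37.6 at PN1, and its log2 ratio of -0.84 missed the 2-fold limit.

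Of 22 G1 cyclins, cyclin-dependent kinases, E2F factors and inhibitors, 7 were called lower and 0 higher (median log2 ratio -0.59). Without scaling 9 of the 22 were called lower, and with equal sums 4. The genes called were led by Ccna2, the S-phase cyclin A (9.23 FPKM at PN10, 40.9 at PN1), Ccne1 (1.53 against 7.92) and Ccne2 (3.53 against 11.8), the E-type cyclins of S-phase entry. The highest ratio in the list was 0.82, under the limit. Ccna2 had 94.6 FPKM at E17 and 1.63 at PN28, so its PN10 level was between its earlier and later levels.

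Promoters of these genes are shown because so many members moved together. The sequences are from RefSeq (GRCm38.p6) and run from 250 bases before to 50 bases after the annotated start. The Cdk1 promoter lies at chr10:69352863-69353162 on the minus strand and the Uhrf1 promoter at chr17:56304063-56304362 on the plus strand. Capitals mark every match to 3 motifs, each searched on both strands: the CCAAT box (CCAAT, or ATTGG as its reverse complement), the cell cycle genes homology region, CHR (TTTGAA or TTCGAA), and the E2F site (TTTCGCGC or TTTGGCGC). The Cdk1 promoter holds all 3 motifs, and the Uhrf1 promoter an E2F site and CCAAT boxes but no CHR. Both were picked for their motifs and are not meant as typical members. Cdk1 has the lowest ratio of the mitosis genes called lower whose promoter held a CHR and a CCAAT box. Uhrf1 has the lowest of the replication genes called lower whose promoter held an E2F site, so Rrm2 and Prim1 were passed over.
Cdk1 promoter: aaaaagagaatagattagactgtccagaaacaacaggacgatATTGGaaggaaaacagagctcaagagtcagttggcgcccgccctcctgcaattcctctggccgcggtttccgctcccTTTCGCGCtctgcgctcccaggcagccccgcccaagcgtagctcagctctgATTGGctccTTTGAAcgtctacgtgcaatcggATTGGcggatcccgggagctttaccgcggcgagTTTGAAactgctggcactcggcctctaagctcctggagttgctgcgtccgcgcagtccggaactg
Uhrf1 promoter: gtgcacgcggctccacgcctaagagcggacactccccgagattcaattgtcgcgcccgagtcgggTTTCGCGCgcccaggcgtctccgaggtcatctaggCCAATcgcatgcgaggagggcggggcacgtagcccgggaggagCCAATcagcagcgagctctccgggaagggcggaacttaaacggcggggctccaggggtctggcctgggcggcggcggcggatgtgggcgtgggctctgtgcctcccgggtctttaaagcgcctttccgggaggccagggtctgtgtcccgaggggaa
The CHR and the CCAAT box are known from promoters of genes that peak in G2 and mitosis, and E2F sites from promoters of genes of the G1 to S transition. A CHR was found in 24 of the 30 mitosis genes with a promoter in the table (80.0%), in 4 of 21 replication genes (19%) and in 16.6% of 8622 genes compared. The CCAAT box was found in 24 of the 30 mitosis genes (80.0%), 13 of 21 replication genes (61.9%) and 43.2% of genes compared. An E2F site was found in 7 of 21 replication genes (33.3%), 1 of 30 mitosis genes (Cdk1, 3.33%) and 1.87% of genes compared. Among all 246 genes called lower at PN10 with a promoter, 34.6% held a CHR and 6.91% an E2F site, and among 264 called higher, 15.2% and 1.89%. Over the whole table of 32851 promoters the shares were 19.2% for the CHR, 37.4% for the CCAAT box and 0.813% for the E2F site. The motifs were picked with the results known, and a match describes the letters only.

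Histone genes of the replication-dependent clusters, whose mRNA is made during S phase, were chosen as a group after the ranking had been seen. Of 56 compared, 44 were called lower at PN10 and 0 higher, with a median log2 ratio of -1.38, and their FPKM summed to 1484 at PN10 against 3597 at PN1. Hist1h4k had 5.34 FPKM at PN10 and 89.3 at PN1, Hist1h4m 0.83 and 15.6, and Hist1h4n 2.23 and 22.9, and these genes for histone H4 were among the 12 lowest ratios of all. Many of these genes are near-identical copies, so the division of fragments among them is uncertain and the sum is the firmer value. On chromosome 13, which holds the largest of these clusters, 51 of 471 genes compared were called lower and 8 higher.

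Some imprinted and fetal growth genes were lower as well. Of 17 compared, 6 were called lower at PN10 and 0 higher (median log2 ratio -0.75), and every log2 ratio was below 0 as scaled here. H19, the imprinted noncoding RNA next to Igf2, had 4801 FPKM at E17, 1669 at PN1, 260 at PN10, 33.8 at PN28 and 27.5 at PN90 (log2 ratio -2.68). It was therefore lower at each stage than at the one before. Plagl1, an imprinted zinc finger factor, had 11.6 FPKM at PN10 against 36.1 at PN1 (-1.55). Gpc3, Grb10 and Igf2r, which restrain growth factor signalling, were called too, with log2 ratios of -1.18, -1.17 and -1.08, though Igf2r was not with equal sums. Of 7 oncofetal RNA-binding and let-7 target genes, Igf2bp3 was called lower (1.52 FPKM at PN10, 7.16 at PN1, log2 ratio -1.70) and 0 were called higher.

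Among 34 receptors and factors of cardiomyocyte growth, 3 were called lower and 1 higher, against 3.31% and 3.20% of all genes compared. Hey2, a Notch target that marks compact ventricular muscle, had 4.33 FPKM at PN10 against 43.2 at PN1 (log2 ratio -3.05). Bmp10, a growth factor of trabecular and atrial muscle, had 0.008 FPKM at PN10 and 2.15 at PN1. Tead2, a DNA-binding partner of YAP, had 2.77 against 9.09 FPKM (-1.42). Fgf16, a cardiac fibroblast growth factor, was higher, with 15.2 FPKM at PN10 and 3.81 at PN1 (1.75). Of 22 cardiac transcription factors only Prrx1, a mesenchymal factor, was called (higher, 22.6 against 10.4 FPKM). Without scaling Prrx1 was not called, 2 genes of the list were called lower, and the list median of 0.10 was -0.14.

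Several fetal and atrial-type contractile genes were lower at PN10, some of them lower than at any other stage. Of 14 compared, 6 were called lower and 2 higher. Myl4, the atrial essential light chain, had 1662 FPKM at E17, 343 at PN1, 63.1 at PN10, 236 at PN28 and 122 at PN90 (log2 ratio of PN10 over PN1 -2.42). Myl7, the atrial regulatory light chain, had 612, 220, 27.8, 70.3 and 42.2 FPKM over the same stages (-2.94). Sln, an inhibitor of the calcium pump in atrial muscle, had 71.7, 28.0, 5.80, 42.8 and 15.1 FPKM (-2.09).

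All 3 genes were thus lowest at PN10 and higher again at PN28. The same held for Nppa, the atrial natriuretic peptide, with 560 FPKM at E17, 157 at PN1, 40.0 at PN10, 249 at PN28 and 153 at PN90. Gm13054, an antisense gene at the Nppa locus that cannot be told apart from it without strand, followed with 15.1 FPKM at PN10 against 59.9 at PN1. Over the 9 atrial markers, of which 1 (Bmp10) was under 0.1 FPKM at PN10 and 0 at PN1, the FPKM summed to 3383 at E17, 1067 at PN1, 373 at PN10, 862 at PN28 and 645 at PN90. Whether the atrial tissue left in each library differed was not tested. Nppb, the B-type natriuretic peptide, and Ankrd1, a stretch-responsive nuclear and sarcomeric protein, were the 2 genes called higher, with 121 against 53.0 FPKM and 499 against 170 FPKM. Both were lowest at PN1, as they had 214 and 627 FPKM at E17. Nppb was not called without scaling.

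**Figure D2:**
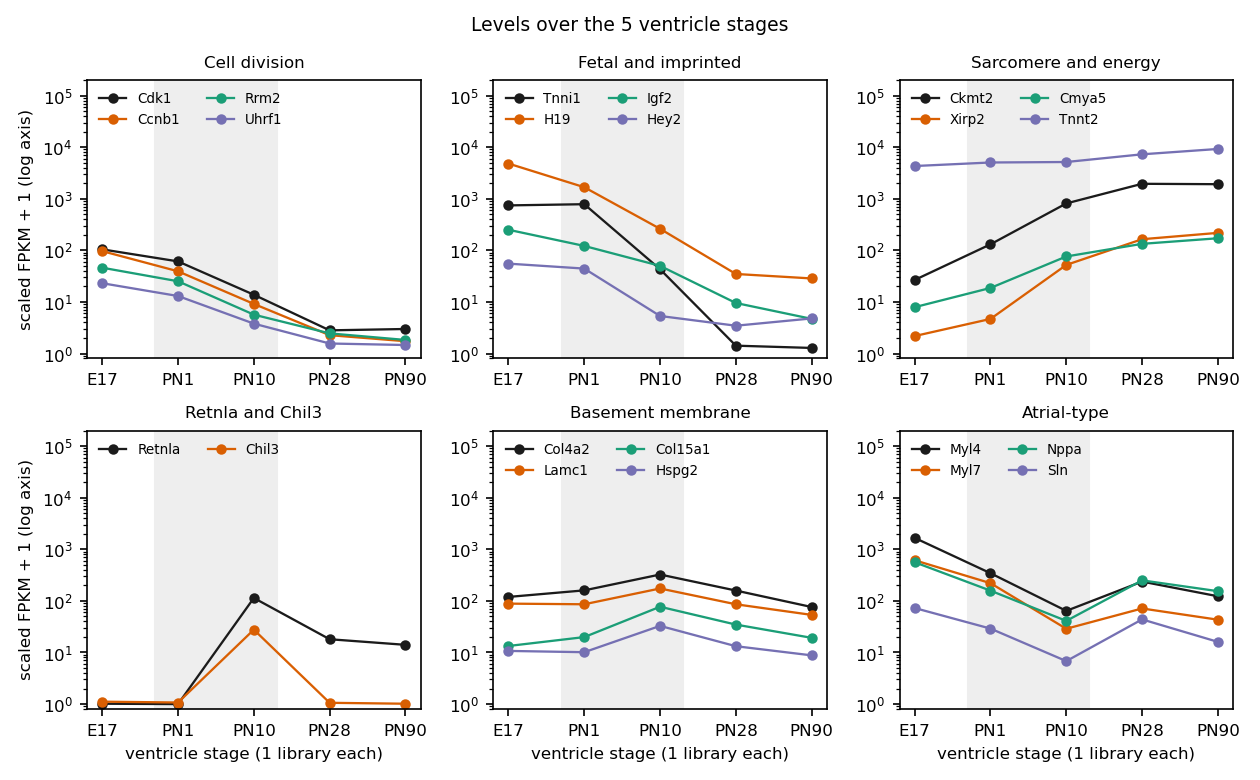
Scaled FPKM + 1 (vertical log axis) at the 5 ventricle stages (horizontal axis, 1 library each, PN1 and PN10 shaded) for genes of 6 groups, 1 line per gene. Cdk1 (12.8 FPKM at PN10, 59.9 at PN1) is lower at PN10 than at PN1 and Ckmt2 (809 FPKM at PN10, 130 at PN1) higher, Retnla is listed at 0 at PN1 and has 113 at PN10, Col4a2 is highest at PN10 with 324 and Myl4 lowest there with 63.1.

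Part of the genes of the mature sarcomere were higher at PN10. Of 35 ventricular sarcomere and Z-disc genes compared, 6 were called higher and 0 lower (median log2 ratio 0.42), and the same counts were found without scaling. Xirp2, an actin-binding protein of the intercalated disc, had 1.18 FPKM at E17, 3.68 at PN1, 51.1 at PN10, 163 at PN28 and 217 at PN90 (log2 ratio 3.48). Cmya5, a large protein of Z-discs and costameres, had 75.0 FPKM at PN10 against 17.6 at PN1 (2.03). Lmod2, which lengthens thin filaments, had 96.7 against 33.7 (1.49). Myoz2, Tcap and Trim54 followed with log2 ratios of 1.32, 1.31 and 1.27. These genes were still below their PN28 level at PN10, as Trim54 shows with 70.1 FPKM at PN28 against 8.34 at PN10.

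Of 27 calcium handling genes, 4 were called higher and 1 lower, against 3.20% and 3.31% of all genes compared. Casq1, the skeletal form of the calcium-storing calsequestrin, had 15.4 FPKM at PN10 against 4.46 at PN1 (log2 ratio 1.59). Hrc, a calcium-binding protein of the sarcoplasmic reticulum, had 135 against 57.4 FPKM (1.22), and Trdn, triadin, which anchors calsequestrin to the release channel, had 30.2 against 13.3 (1.12). Ryr2, the release channel itself, had 205 FPKM at PN10 and 100 at PN1 (1.02). Ppp1r1a, an inhibitor of protein phosphatase 1, was lower, with 1.51 against 5.81 FPKM (-1.44). Without scaling, Hrc, Trdn and Ryr2 were not called, and the list had 1 gene called higher and 3 lower of 28. Atp2a2 and Pln, the calcium pump and its inhibitor phospholamban, were usable at both stages though not in all 5 libraries. Atp2a2 had 1455 FPKM at PN10 and 769 at PN1 (0.92, not called), and Pln had 3284 and 2534 (0.37).

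Of 25 ion channel and gap junction genes, 6 were called higher and 1 lower, and 5 were called higher without scaling, where the list median of 0.26 fell just below 0. Kcnd2, a channel of the transient outward potassium current, had 9.10 FPKM at PN10 against 1.62 at PN1 (log2 ratio 1.95). Gja5, connexin 40 of the atria and conduction system, was lower, with 2.64 FPKM at PN10 and 9.83 at PN1 (-1.57). Chrm2, the M2 muscarinic receptor, was the only 1 of 19 adrenergic and muscarinic genes called (49.9 against 23.7 FPKM). It was not called without scaling, and the list median of 0.23 became -0.03. Of 18 transverse tubule and caveola genes, 3 were called higher and 0 lower, namely Cavin4, Dysf and Sgcd with log2 ratios of 1.23, 1.11 and 1.06, none of them without scaling.

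Energy genes did not move as a block. Of 29 fatty acid oxidation genes 0 were called in either direction (median log2 ratio 0.11 as scaled, -0.15 without scaling), and the same was true of 23 tricarboxylic acid cycle genes (0.20 and -0.06). Between the PN28 and E17 libraries, the median log2 ratio of the fatty acid oxidation list was 1.56, with 25 genes called higher, and that of the tricarboxylic acid cycle list 1.19, with 17. Of 55 oxidative phosphorylation genes, Cox5b (6232 against 2606 FPKM, log2 ratio 1.26) and Ndufs7 (75.0 against 36.2, 1.03) were called higher and Cox6a1, the non-muscle form of its subunit, lower (41.5 against 90.5, -1.11). Over all genes compared the shares were 3.20% higher and 3.31% lower. Neither Cox5b nor Ndufs7 was called without scaling, where the list median of 0.17 was -0.09. Ppargc1a, the coactivator PGC-1 alpha, had 52.1 FPKM at PN10 and 46.9 at PN1 (0.15, not called).

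Genes encoded in mitochondrial DNA were higher where they could be measured. Most were listed with failed estimates and are not compared. Of the 5 that were, mt-Nd2 had 6053 FPKM at PN10 against 1107 at PN1 (log2 ratio 2.45), mt-Nd6 3954 against 718 (2.46), mt-Nd5 4383 against 1182 (1.89) and the ribosomal RNA mt-Rnr1 2291 against 619 (1.89), all called. They encode subunits of respiratory complex I, apart from mt-Rnr1. Ventricle RNA was depleted of ribosomal RNA, and the part of this depletion in the mt-Rnr1 levels was not tested. The fifth, mt-Nd3, had 32289 FPKM at PN10 and 22018 at PN1 with overlapping intervals (0.55). mt-Nd5 and mt-Nd6 lie on opposite strands of a compact genome, and reads of its 2 strands cannot be told apart without strand information.

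Single enzymes and regulators stood out. Ckmt2, the mitochondrial creatine kinase of muscle, had 25.6 FPKM at E17, 130 at PN1, 809 at PN10, 1945 at PN28 and 1911 at PN90 (log2 ratio 2.63), the only 1 of 7 creatine genes called, in a list whose median of 0.18 was -0.08 without scaling. Pdk4, the kinase that switches off pyruvate dehydrogenase, had 8.70, 43.8, 264, 121 and 129 FPKM over the same stages (2.57), highest at PN10. Pnpla2, adipose triglyceride lipase, had 14.7 FPKM at PN10 against 4.03 at PN1 (1.64), and Plin5, a lipid droplet coat protein of oxidative tissue, 30.3 against 13.4 (1.12). With these, 3 of 22 fatty acid uptake, lipid droplet and PPAR target genes were called higher and 0 lower. Without scaling Plin5 was not called, and the list had 2 genes higher and 1 lower.

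Of 30 nuclear receptors and coactivators of energy metabolism, 5 were called higher and 0 lower, and 4 were called without scaling, where the median of 0.16 was -0.10. Rxrg, a retinoid X receptor, had 11.2 FPKM at PN10 against 0.76 at PN1 (log2 ratio 2.79). Epas1, the hypoxia-inducible factor 2 alpha, had 48.2 against 13.1 (1.80), and Thrb, a thyroid hormone receptor, 4.55 against 0.67 (1.74). Klf9, a thyroid hormone and glucocorticoid target, had 36.5 against 14.3 FPKM (1.29).

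Ketone body and glucose genes gave few calls, against 3.20% called higher and 3.31% called lower over all genes compared. Of 5 ketone body genes, 1 was called higher and 1 lower. Oxct1, which starts the use of ketone bodies, was the higher one, with 369 FPKM at PN10 and 173 at PN1 (log2 ratio 1.09). It was not called without scaling. Of 28 glucose transport and glycolysis genes, Slc2a4, the insulin-regulated transporter GLUT4, was called higher (204 against 82.3 FPKM, 1.30), while Aldoc, aldolase C, and Pygl, the liver-type glycogen phosphorylase, were called lower (0.15 against 2.70 FPKM, and 17.1 against 44.6 FPKM).

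Cytoplasmic ribosomal protein genes mostly had ratios slightly below 0. Of 60 compared, 4 were called lower and 0 higher, yet 58 had a log2 ratio below 0, with a range of -1.13 to 0.52 and a median of -0.49 (-0.76 without scaling, -0.37 with equal sums). Rpl30, Rpl39, Rps3 and Rps29 were those called, with log2 ratios of -1.13, -1.12, -1.07 and -1.06. Without scaling 10 of the 60 were called lower, and with equal sums 1, when Rpl39, Rps3 and Rps29 lost the call. Such genes have near-identical pseudogenes and their values are uncertain. Rpl3l, the muscle paralog of Rpl3, went the other way, with 16.1 FPKM at PN10 against 1.64 at PN1 (2.70). Of 39 splicing regulators, 22 immediate early genes and 21 genes of mitochondrial dynamics 0 were called, and Rpl3l was the only call among 9 genes of paired translation factor forms. Among 12 tubulin and stathmin genes the direction split by isotype: Tubb2b, Tubb5, Stmn1 and Tuba1b were lower, with log2 ratios of -1.78, -1.53, -1.53 and -1.26, and Tuba8 and Tuba4a were higher, with 19.7 against 2.29 FPKM (2.65) and 139 against 39.4 FPKM (1.79).

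**Figure D3:**
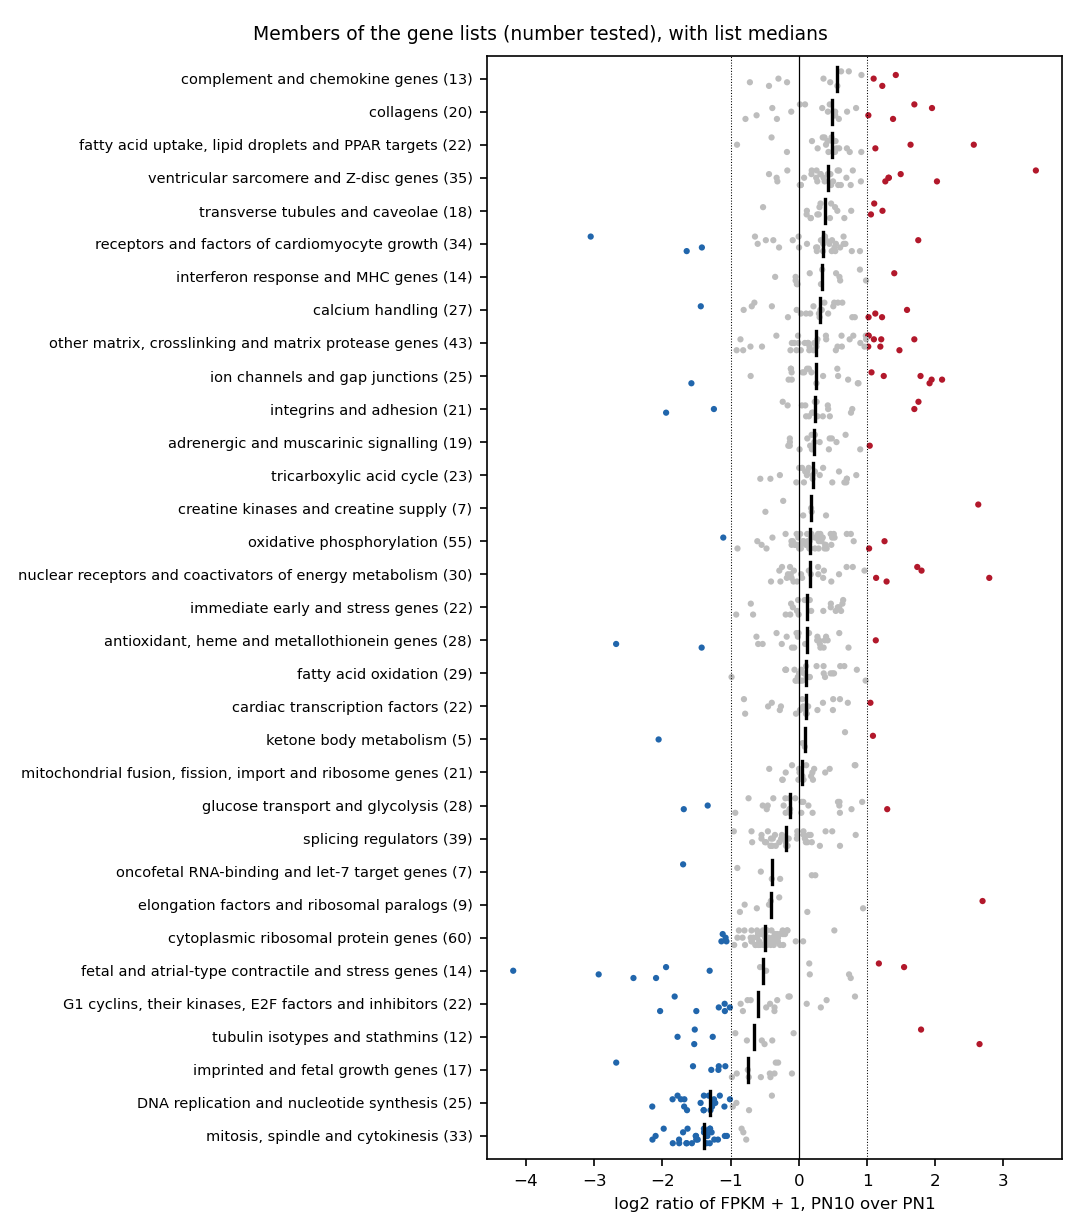
Log2 ratio of FPKM + 1 (PN10 over PN1, horizontal axis) of each compared member of 33 gene lists (rows, with the number compared), sorted by list median (black bars). Red points were called higher at PN10 and blue points lower, and dotted lines mark the 2-fold limits. The mitosis and DNA replication lists lie apart at the bottom with medians of -1.39 and -1.30, and the other medians lie between -0.75 and 0.57.

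Several matrix genes were higher, and some of those of the basement membrane were highest at PN10 itself. Of these, Col4a2 and Lamc1 were named after their values had been seen. Of 20 collagens, 4 were called higher and 0 lower (median log2 ratio 0.49), and of 43 other matrix, crosslinking and protease genes, 8 were called higher and 0 lower (0.26), though 2 higher and 3 lower without scaling. Col4a2, a chain of the type IV collagen of basement membranes, had 118 FPKM at E17, 159 at PN1, 324 at PN10, 158 at PN28 and 75.1 at PN90 (log2 ratio 1.02). Hspg2, the heparan sulfate proteoglycan perlecan, had 9.73, 9.13, 31.8, 12.2 and 7.80 FPKM (1.69). Col15a1, a collagen of vessel and muscle basement membranes, had 12.4, 18.9, 76.0, 33.7 and 18.2 FPKM (1.95).

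As scaled here, these genes were at least 2-fold higher at PN10 than at both neighbouring stages, and both comparisons use the same PN10 library. Lamc1, the laminin gamma-1 chain, shared the pattern with 173 FPKM at PN10 against 85.0 at PN1 and 85.0 at PN28, as did Mfap4 and Mfap5, proteins of elastic fibres, with 34.9 and 27.3 FPKM at PN10 against 11.9 and 11.3 at PN1. Without scaling, Col4a2, Lamc1 and Mfap5 were not called over PN1, with log2 ratios of 0.76, 0.76 and 0.95. Of the 367 genes called higher at PN10, 26 had this shape, among them also Pdk4, Adamts17 and Sema6a. Col8a1 (6.45 against 1.30 FPKM, 1.70) and Col5a3 (3.76 against 0.83, 1.38) did not, since both were higher still at PN28. Among 21 integrin and adhesion genes, Itga9 and Itga7, receptors for tenascin and for muscle laminin, were called higher (log2 ratios 1.76 and 1.69), and Ncam1 and Pkp2, an adhesion molecule and a desmosome protein, lower (-1.95 and -1.24).

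Some markers of the non-muscle cells were called, against 3.20% called higher over all genes compared, and their summed levels were higher at PN10. The FPKM of 13 fibroblast markers summed to 1535 at PN10 against 897 at PN1, with 12 of the 13 log2 ratios above 0 and Dcn and Mgp called (log2 ratios 1.21 and 1.20). Without scaling 0 of the 13 were called. The 15 endothelial markers summed to 512 against 342, with 14 log2 ratios above 0 and Ptprb, an endothelial phosphatase, called (1.67). The 11 smooth muscle and pericyte markers summed to 1002 against 534, with Rgs5, a pericyte gene, called (1.54). No marker of these 3 lists was below 0.1 FPKM at either stage. The 11 usable cardiomyocyte markers summed to 20122 at PN10 and 16913 at PN1, with Ckmt2 and Ryr2 called (Ryr2 not without scaling). The part of cell numbers in the matrix results was not tested.

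Other cell types gave single calls on short lists, and their part in any result was not tested. Over all genes compared, 3.20% were called higher and 3.31% lower. The usable markers summed to 448 FPKM at PN10 against 296 at PN1 for erythroid cells, 12 against 21 for neutrophils, 6.51 against 1.46 for lymphocytes, 31.0 against 44.9 for epicardium and 1592 against 1319 for adipocytes. Many of these markers were near the floor. Under 0.1 FPKM at PN10 and PN1 were 7 and 7 of 10 adipocyte markers and 9 and 12 of 18 lymphocyte markers. The same held for 7 and 4 of 18 erythroid, 3 and 3 of 12 neutrophil and 2 and 0 of 13 epicardial markers. Skeletal muscle markers summed to 4.10 against 6.55 and neural markers to 3.87 against 2.35, with 7 of 11 in each under 0.1 FPKM at both stages. Of 9 erythroid genes compared, 3 were called higher at PN10 and 0 lower. Among them were Alas2, the first enzyme of heme synthesis in red cells (23.9 against 10.3 FPKM), and Tfrc (152 against 71.5 FPKM), after E17 levels of 201 and 42.7. Without scaling neither Alas2 nor Tfrc was called, and 1 of the 9 was. Tfrc, the transferrin receptor, is also used by other cells. S100a8, a neutrophil protein, was lower (1.55 against 8.52 FPKM, log2 ratio -1.90), and Ighm, the heavy chain of IgM, higher (3.02 against 0.45, 1.47). Of the mesothelial and epicardial markers, Upk3b was lower (0.56 against 3.07, -1.39), and of the adipocyte markers Car3 (0.44 against 2.06, -1.09). Complement and chemokine genes gave 3 calls of 13, all higher, among them Ccl6, a chemokine of myeloid cells (3.85 against 0.81, 1.42), and Serping1, the C1 inhibitor (21.5 against 9.50, 1.1). Without scaling 1 of the 13 was called, and Serping1 was not. Of the interferon response genes, Gbp2 was called higher (8.33 against 2.53, 1.40).

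The highest ratio of all belonged to Retnla, a secreted product of alternatively activated macrophages also called FIZZ1. It was listed at 0.02 FPKM at E17, at 0 at PN1, at 113 at PN10, at 17.1 at PN28 and at 13.1 at PN90. Chil3, a chitinase-like protein of the same macrophage state, had 0.11, 0.07, 26.7, 0.06 and 0.02 FPKM over these stages, a log2 ratio of 4.69. Chil3 was thus present at PN10 and close to 0 in the other 4 ventricles. Alox15, a lipoxygenase of macrophages and eosinophils, had 2.13 FPKM at PN10 against 0.01 at PN1 and 0.04 at PN28. The gene model Gm28037 and Magohb, a protein of the exon junction complex, were also above both neighbouring stages, with 10.7 and 8.31 FPKM at PN10 against 0.0007 and 1.54 at PN1. They were not confined to PN10, since Gm28037 had 5.50 FPKM at PN90 and Magohb 7.99 at E17 and 8.38 at PN90.

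General macrophage markers did not show a step of this size. None of the 12 compared was called (median log2 ratio 0.54), and all 17 listed markers summed to 83.6 FPKM at PN10 against 52.9 at PN1, then 233 at PN28, with 0 under 0.1 FPKM at PN10 and 1 at PN1. In isolated cells, Retnla had 81.4 and 82.1 FPKM in PN28 and PN60 fibroblasts and 24.6 and 24.3 in PN30 and PN67 cardiomyocytes, against at most 0.16 in the 4 neonatal libraries. Chil3 had at most 1.03 FPKM in any cell library. Whether the PN10 library differed from the other stages in its animals or in tissue beside the heart was not tested.

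Other genes among the 12 highest ratios were Art1, an ADP-ribosyltransferase of the muscle surface (30.02 FPKM at PN10, 1.76 at PN1, log2 ratio 3.49), Prg4, the proteoglycan lubricin (8.71 against 0.39, 2.81), Pi16, a secreted protein of fibroblasts (15.0 against 1.48, 2.69), Lrtm1 (45.5 against 6.35, 2.66) and Lrrc15 (10.8 against 0.90, 2.64). In isolated cells Prg4 and Pi16 were highest in PN28 and PN60 fibroblasts (187 and 158 FPKM, and 141 and 215 FPKM), and Art1 in PN30 and PN67 cardiomyocytes (172 and 176). Among the 12 lowest were Cited1, a transcriptional coactivator (1.14 against 20.3 FPKM, -3.32), Stbd1, a glycogen-binding protein (1.1 against 15.4, -2.97), Pclaf, a PCNA-binding protein of replication (3.98 against 30.9, -2.68), and Bex4 and Bex1 (1.18 against 22.4, -3.42, and 6.99 against 55.8, -2.83). Mt2, a metallothionein that binds zinc, was another (2.74 against 22.9, -2.68), and both Mt2 and Mt1 (31.2 against 85.5, -1.42) were higher again at PN28, with 13.1 and 132 FPKM. Sod3, the secreted superoxide dismutase, was the gene of the antioxidant list called higher (1.75 against 0.26, 1.13), though not without scaling, where the list median of 0.12 was -0.12. Xist, the noncoding RNA of the inactive X chromosome, had 17.6 FPKM at PN10 and 7.76 at PN1 and 0.04 at PN28, while the Y-linked Ddx3y had 26.9, 25.8 and 72.7. Eif2s3y, Uty and Kdm5d, also Y-linked, were lower at PN10 than at PN1. They had 44.0 against 63.3, 9.96 against 12.7 and 3.42 against 4.30 FPKM. Of the 4 Y-linked genes compared, 0 were called. Transcripts of both sexes were thus present at PN10 and PN1, whereas Xist was close to 0 at PN28 and PN90. The part of the animals' sex in other differences was not tested.

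The PN28 and E17 libraries share nothing with the PN10 and PN1 values apart from the scaling. They span a wider interval, from before birth to PN28. They therefore give the direction over that whole course and do not repeat the comparison of PN10 with PN1. Of the genes called higher at PN10, 358 could be compared, and 289 of them (80.7%) were called higher at PN28 than at E17 while 6 were called lower, against 13.2% and 11.3% of all 11731 genes. Of those called lower at PN10, 375 could be compared, and 334 (89.1%) were called lower at PN28 and 4 higher. The genes that went the other way were few. Lower at PN10 but higher at PN28 than at E17 were Ptgds, Ifi27l2a, Dpm1 and the pseudogene Gm10275. Ptgds, a prostaglandin D synthase, had 16.3 FPKM at PN10 against 59.2 at PN1 and was higher again at PN28 (log2 ratio of PN28 over E17 1.08). Higher at PN10 but lower at PN28 than at E17 were, among others, Alas2, Tent5c, Xist, Magohb and Gm29247. These genes were named after their values had been seen. For Xist this contrast also reflects the sex of the animals. At PN28 it had 0.04 FPKM and the Y-linked Ddx3y 72.7, whereas transcripts of both sexes were present at E17. The part of sex in the other differences between PN28 and E17 was not tested.

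**Figure D4:**
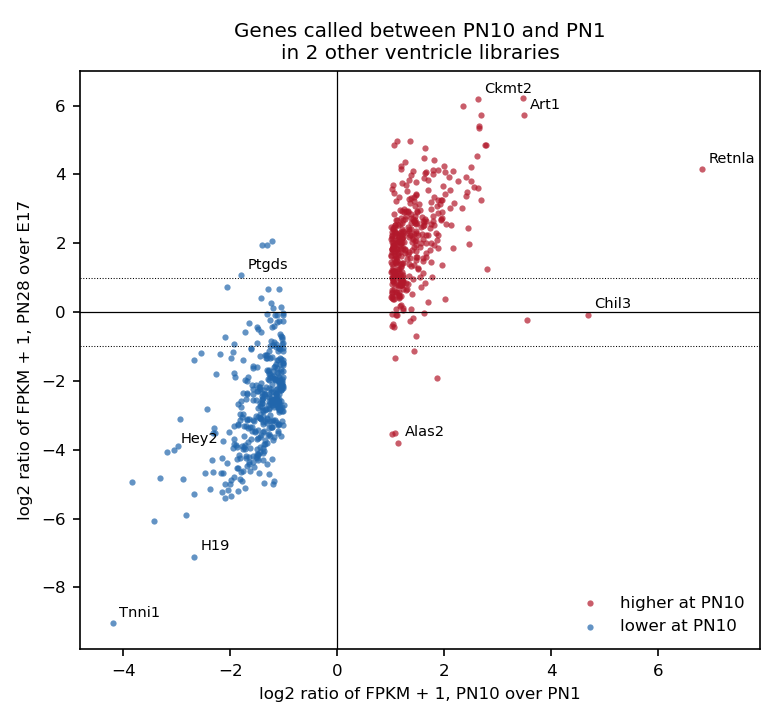
Log2 ratio of FPKM + 1 for PN28 over E17 (vertical axis) against PN10 over PN1 (horizontal axis) for genes called between PN10 and PN1, 1 point per gene, red where higher at PN10 and blue where lower. Dotted lines mark 2-fold. Of the red points 289 are called higher at PN28 and of the blue points 334 are called lower. Chil3 lies at 4.69 on the horizontal axis and near 0 on the vertical.

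Isolated cells gave the later direction in each cell type. Of 345 genes called higher at PN10 and measured in cells, 223 (64.6%) were at least 2-fold higher in PN30 cardiomyocytes than in both neonatal cardiomyocyte libraries, against 20.8% of 10678 genes, and 77 (22.3%) were so in PN28 fibroblasts, against 7.34%. Of 291 genes called lower at PN10, 207 (71.1%) were at least 2-fold lower in PN30 cardiomyocytes, against 13.4%, and 174 (59.8%) in PN28 fibroblasts, against 8.89%. Isolation method and stage cannot be told apart in cardiomyocytes, since neonatal cells were preplated and later cells came from perfused hearts. Of the genes higher at PN10, 76 (22.0%) were at least 2-fold higher in neonatal cardiomyocytes than in neonatal fibroblasts and 50 (14.5%) the reverse, against 8.90% and 4.65% of all genes. Among the 291 genes lower at PN10, the counts were 42 (14.4%) and 6 (2.06%).

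Isoform use was compared as the share of an isoform in the FPKM of its gene, for genes with at least 5 FPKM in both libraries. An isoform was called when its share differed by at least 10 percentage points and the intervals of the shares did not overlap. Of 23712 isoforms of 4203 genes, 1112 in 685 genes were called (4.69%), against 0.556% between the 2 neonatal cardiomyocyte libraries and 1.07% between the 2 neonatal fibroblast libraries. From E17 to PN28, 416 of 1112 (37.4%) moved by at least 10 points in the same direction and 44 (3.96%) in the opposite. Over all isoforms compared, 7.01% moved by as much, but this share is not a like-for-like reference. A called isoform must have a share of at least 10% at PN10 or PN1. All isoforms compared include some with almost no share at any stage, which leaves little room to move. Shares within a gene also depend on each other, so a switch can be counted for each isoform involved.

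Tnnt2 showed the fetal-to-adult switch at an unchanged gene level. The isoform Tnnt2-204 made up 78.3% of Tnnt2 at E17, 51.1% at PN1, 19.5% at PN10, 11.9% at PN28 and 9.93% at PN90. Its PN10 interval was 19.1 to 19.9% and its PN1 interval 50.4 to 51.7%. Tnnt2-201 made up 13.2%, 33.9%, 64.7%, 71.0% and 73.4% over the same stages. In GENCODE M21 an exon of 30 bases (10 codons) lies at chr1:135843785-135843814 on the plus strand of GRCm38, the fetal exon near the start of the protein, which Tnnt2-204 holds and Tnnt2-201 lacks. The exon content is that of M21, and the deposited model of Tnnt2-204 is slightly shorter than the one in M21, so that its content is not certain. It is shown in capitals with 9 bases on either side, and the line below it is the junction of Tnnt2-201.
Tnnt2-204: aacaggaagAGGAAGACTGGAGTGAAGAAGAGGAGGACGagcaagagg
Tnnt2-201: aacaggaagagcaagagg
Isoforms that hold this exon or one overlapping it, Tnnt2-204 and Tnnt2-203, together made up 19.8% of Tnnt2 at PN10 and 53.6% at PN1.

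Mlf1, a myeloid leukemia factor that is also expressed in heart muscle, showed a cassette exon going the other way. Mlf1-201, which holds it, made up 15.0% of Mlf1 at E17, 34.9% at PN1, 64.6% at PN10, 63.5% at PN28 and 69.8% at PN90, and Mlf1-202, which lacks it, 35.1% at PN10 and 64.9% at PN1. The exon has 45 bases (15 codons) at chr3:67390978-67391022 on the plus strand of GRCm38, again in capitals with 9 bases on either side.
Mlf1-201: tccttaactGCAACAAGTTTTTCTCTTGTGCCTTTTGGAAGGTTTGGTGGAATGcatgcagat
Mlf1-202: tccttaactcatgcagat
Pacsin2, a membrane-bending protein, also moved between isoforms: Pacsin2-202 made up 54.1% at PN10 and 20.1% at PN1, and Pacsin2-203 made up 20.6% and 49.8%. Asph-206 made up 45.6% of Asph, a locus that also encodes junctin of the sarcoplasmic reticulum, at PN10 and 11.8% at PN1. Synpo2l-201, of a Z-disc protein, made up 48.4% at PN10 and 19% at PN1. Mlf1, Pacsin2, Asph and Synpo2l were named after their values had been seen. In the isoforms given here the PN10 shares lay closer to those at PN28 than to those at PN1.

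**Figure D5:**
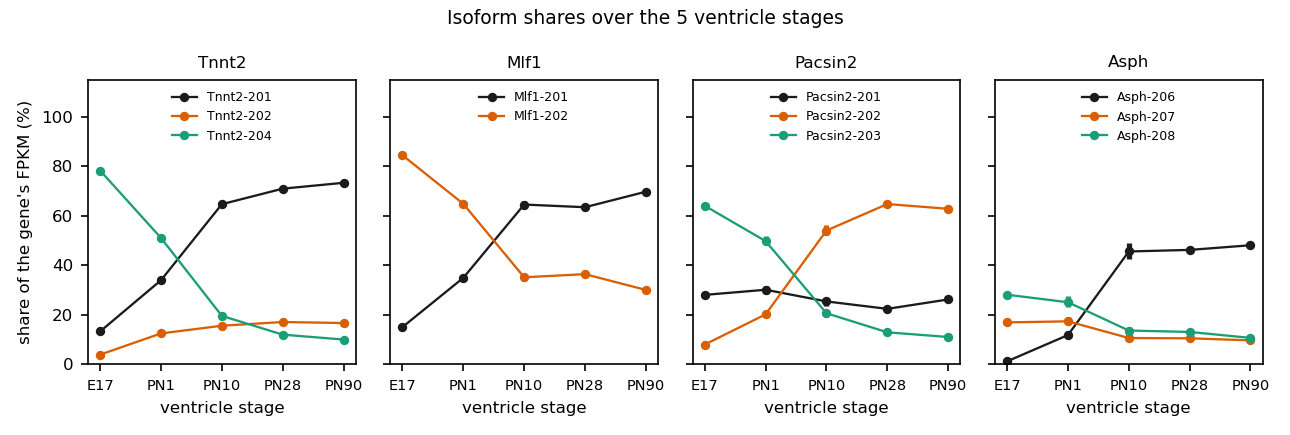
Share of the gene's FPKM in percent (vertical axis) at the 5 ventricle stages (horizontal axis, 1 library each) for the main isoforms of Tnnt2, Mlf1, Pacsin2 and Asph, 1 line per isoform, with vertical bars for the intervals at PN1 and PN10. Tnnt2-204 falls below Tnnt2-201 between PN1 and PN10 (19.5% and 64.7% at PN10), and the leading isoform also changes in Mlf1, Pacsin2 and Asph.

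The 8 genes with the largest called share changes included several without a steady course. Cdadc1-203 made up 0.03% of its gene at PN10 and 50.3% at PN1, but 0.04% at E17, and Rnasek-203 made up 46.3% at PN10 and 0.003% at PN1, but 12.7% at E17. Tpi1-203, Jade1-201, Klhl4-202 and Zc3hc1-205 changed by 49.8, 45.0, -43.8 and -40.1 points. Jade1-201 went on to 41.8% at PN28 and 49.3% at PN90, close to its 46.1% at PN10, whereas Zc3hc1-205 was at 0 at PN10 and at 44.8% at PN90. Gata4, a cardiac transcription factor, had less of isoform Gata4-204 (19.6% at PN10, 49.9% at PN1) and more of Gata4-206 (46.2% and 7.43%), and kept this at PN28 with 41.5% for Gata4-206. Ufm1, a ubiquitin-like modifier, had less of the retained-intron form Ufm1-204 (3.67% and 41.0%). Isoforms that differ little are poorly resolved by such estimates, and the intervals do not include errors of the transcript models.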

How the data were processed

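Per the labels' protocols, ventricle RNA was isolated with a fibrous-tissue kit, depleted of ribosomal RNA (Ribo-Zero Gold) and made into ScriptSeq v2 libraries. The tools and build listed per the submitters' processing notes are TopHat2 2.0.5, Cufflinks 2.1.1 and mm9. The annotation and strand setting are not given in the sources used here. The deposited values are FPKM of 94696 transcripts per library with 95% confidence bounds, plus a coverage signal that the authors' Cufflinks run gave and that was used only as a guide to depth. Transcript identifiers were matched to GENCODE M21 for names (82379, 87.0%).

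Gene FPKM was summed over transcripts of at least 200 nt with status OK in all 5 ventricle libraries. Genes with a transcript whose estimate failed or overflowed in any of these were left out (64, among them Myh6, Myh7, Myl2, Ttn and most mitochondrially encoded genes). Bounds that missed their own FPKM were widened to hold it. Libraries were scaled by median ratios, ventricles and cells apart. Ratios are of FPKM + 1, which understates changes of low genes. No count test applies, since the files hold no counts. Python 3.11.15 with pandas 2.3.3 and numpy 2.4.6 was used, and the calls were checked on simulated data.

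The members, the 46 gene lists and the motifs were chosen with earlier results of these data known. Genes were named by a written rule: the 12 highest and 12 lowest called ratios, the 3 largest calls per list with calls in the other direction, 8 fixed genes, the 8 largest isoform changes, and 6 genes each with the largest excess or deficit at PN10 against both neighbouring stages. Genes outside it, named after their values were seen, are Adamts17, Alb, Asph, Atp2a2, Bex3, Col4a2, Ddx3y, Eif2s3y, Gpc3, Grb10, Hspb8, Igf2r, Kdm5d, Klf9, Lama2, Lamb2, Lamc1, Mapt, Mfap5, Mlf1, Myoz2, Neat1, Pacsin2, Pln, Rps29, Sema6a, Synpo2l, Tcap, the Tceal genes, Trim54, Trim72, Tuba1b, Uty, Xist, the mitochondrially encoded genes and the genes that went the other way at PN28. Some named genes are not reported here. Alternatives were other scalings, pseudocount, filters, interval rule and fold limits.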

Additional observations from a re-analysis of the deposited data

Results flagged for a closer look

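Transcripts shorter than 200 nt lay outside the gene sums. Of 5413 with usable values at both stages, 253 reached a mean of 1 FPKM, and 5 of these were called higher at PN10 (1.98%) and 8 lower (3.16%). They are given here because they lie in data that the comparisons did not use. Neither share was above that of the genes called, 3.20% higher and 3.31% lower. The log2 ratio limits nearest to no difference were 0.03 to 0.12 for those higher and -0.07 to -0.14 for those lower, so the calls are weak. All 5 were listed at 0 at PN1, so no fold is given. They were the small nuclear RNAs Gm24018 and Gm25313 with 130 and 39.1 FPKM at PN10, the small nucleolar RNAs Gm23077 and Snord15a with 29.3 and 3.34, and a transcript of Mettl17 with 2.06. All 8 that were lower were listed at 0 at PN10, led by Rny3, a Y RNA, with 302 FPKM at PN1 and Snord13, a small nucleolar RNA, with 167.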

How the results depend on the processing

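No paired analysis was possible because each stage has 1 library and the labels give no replicate numbers for ventricles. For the same reason no library could be left out. The numbers of genes called higher and lower at PN10, 367 and 379, became 215 and 594 with FPKM as deposited, 575 and 549 with a pseudocount of 0.1, 1149 and 888 at a fold of 1.5, 37 and 37 at a fold of 4, and 250 lower at a minimum FPKM of 5 (252 higher). Equal sums without mitochondrially encoded genes gave 489 and 313. The 1112 isoforms called became 221 at a change of 20 points, 1755 at a minimum gene FPKM of 1 and 450 at a minimum of 20. The other settings stayed within 1.5 times. Of the 746 genes called, 594 were still called with FPKM as deposited and 675 with equal sums. That 0 turned their sign under any of these settings is no support. The other scalings shift ratios by less than the 2-fold limit, and most other settings cannot turn a sign. The setting that judged failed transcripts at PN10 and PN1 only, chosen after seeing the data, gave 369 and 380. Among named genes, 20 of 62 called higher lost the call with FPKM as deposited and 0 of 50 called lower, while with equal sums 0 and 3 did (Cox6a1, Rpl39 and Rps3). The medians of 13 lists changed sign with FPKM as deposited. With 1 library per stage, differences between animals, dissections and libraries are not measured, and depth limits what can be said of genes near 1 FPKM.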

Other observations

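X-linked Bex and Tceal genes, a family of small proteins best known from neurons, were looked at after Bex4 and Bex1 had appeared among the lowest ratios. Of 8 compared, 6 were lower at PN10 by the same call and 0 higher, with a median log2 ratio of -1.73. Tceal9 had 378 FPKM at E17, 243 at PN1, 89.1 at PN10, 48.0 at PN28 and 42.9 at PN90, and Bex3 had 112, 58.4, 18.9, 5.18 and 3.78. Tceal7 had 3.77 FPKM at PN10 against 25.6 at PN1. All 8 lie on the X chromosome, where 26 of 421 genes compared were called lower and 10 higher. Tceal1 was nearly level, with 6.07 FPKM at PN10 and 7.24 at PN1.

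A few other called genes outside the lists were picked after their values had been seen. Trim72, which seals breaks in the muscle cell membrane, had 48.9 FPKM at PN10 against 8.76 at PN1 (log2 ratio 2.35) and 144 at PN28. Hspb8, a small heat shock protein of muscle, had 71.0 against 17.4 (1.97), and Mapt, the microtubule-binding protein tau, had 12.2 against 1.14 (2.62). Neat1, a nuclear noncoding RNA, was also higher (log2 ratio 1.44). Alb, the liver secretory protein albumin, had 30.7 FPKM at E17, 3.17 at PN1 and 0.03 at PN10, and was listed at 0 at PN28 and PN90.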
